A study of Mus musculus with 15 samples.

Results

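The genes described here make, sense and remove prostaglandin E2 in the epithelium. The list held 8 genes, and each was read from the probe set whose only gene symbol was that name, with the highest mean over the arrays kept where several shared it. Of the 8 listed genes, 7 were measured among the 18820 genes of the arrays. Ptgs1, which encodes the constitutive cyclooxygenase, had no probe set under its symbol in the annotation used and is not analysed here. The 7 measured genes were Ptgs2, Pla2g4a, Ptges, Ptges2, Ptges3, Hpgd and Ptger4.

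Prostaglandin E2 is a short-lived lipid signal. A phospholipase frees arachidonic acid from membranes, a cyclooxygenase turns it into prostaglandin H2, a terminal synthase makes prostaglandin E2, and the lipid leaves the cell and binds receptors that raise or lower cAMP. It is taken up again by a carrier and oxidized inside the cell. In the gut it is known for its part in mucosal protection, electrolyte and fluid secretion and the regrowth of the epithelium after injury.

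The cells were confluent two-dimensional monolayers of enteroids from the duodenum of female C57BL/6J mice aged 9 weeks. For 6 h they received soybean meal (SBM), casein (CAS), yellow mealworm (YMW), plasma protein dried by spraying (SDPP), or DMEM, which was the medium control (MC). The labels give 4% w/v of each source, while the methods also state a concentration in µg/mL that is not the same amount. Each group had 3 arrays, 15 in all, each from 3 wells of a plate. The methods name 3 mice, the mouse behind each array is not given in the sources used here, and the p-values measure the spread between these arrays. The methods place the protein-treated monolayers in W-ENR growth medium and describe the MC as DMEM-F12 alone. Whether the MC also had W-ENR during the exposure is not given in the sources used here, so a difference in medium and the protein source cannot be told apart in comparisons with the MC. Values are log2 of the normalized intensity on Affymetrix arrays (mouse gene 1.1 ST). Background was set at a mean log2 of 3.91, below which 95% of smell and pheromone receptor genes lay, and all 7 measured genes exceeded it.

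Marker genes were set beside the epithelial label. All 12 enterocyte markers, all 8 crypt base stem cell markers and 11 of 15 measured tuft cell markers were above background. Of the markers of other tissues, 0 of 4 endothelial and 2 of 7 measured leukocyte markers were. Ptprc, the common leukocyte antigen, had a mean log2 of 3.60, and the leukocyte markers above background were Csf1r (4.48) and Cd3e (3.98). Of 8 fibroblast markers 5 were above background, with Vim at 5.26 and Col1a1 at 5.22, while Dcn and Lum were at 2.93 and 2.81. Tuft cell markers ran from 2.60 (Gnat3) to 10.74 (Cd24a), with Dclk1 at 5.05. The background criterion alone thus does not separate tuft cells from fibroblasts here.

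MC replicate 1 stood apart from the other MC arrays, and every comparison with the MC below rests on this. The groups were kept as labelled, and whether an MC array was mislabelled or came from another culture was not tested, so a fold against the MC holds for these labels only. For all 7 genes its value lay inside the range of the 12 exposed arrays, which held for 84.2% of all genes. MC replicates 2 and 3 both lay outside that range, on the same side, for 6 of the 7 genes and for 24.8% of all genes. The mean log2 of the 12 enterocyte markers was 8.60, 10.50 and 10.54 in MC replicates 1, 2 and 3, and between 8.36 and 10.10 in the exposed arrays. That of the 8 stem cell markers was 8.66, 7.86 and 7.25 in the MC and between 8.36 and 8.79 in the exposed arrays. The summed intensity of the enterocyte markers ranged from 8273 to 31480 in the MC and from 6893 to 20831 in the exposed arrays, and that of the fibroblast markers from 168.4 to 193.5 and from 168.1 to 191.5. The part of these cell type differences in the results on prostaglandin genes was not tested. In bulk RNA, fewer cells of a type and less RNA per cell cannot be told apart.

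Ptgs2 and Pla2g4a are next to each other on chromosome 1 and head to head, with gene starts 138.7 kb apart in the GRCm38.p6 table of RefSeq promoters and no other protein-coding gene between them. The promoters of these and of Hpgd and Ptger4, the other genes with a call in more than one comparison with the MC, are shown 5′ to 3′, from 250 bases before the gene start to 50 bases from it. Capitals mark matches, on either strand, to a cAMP response element (CRE, TGACGTCA) or its core (TGACG), an AP-1 site (TGANTCA), an E-box (CACGTG), a GC box (GGGCGG) or a TATA box (TATAAA).
Ptgs2, chr1:150099781-150100080, plus strand: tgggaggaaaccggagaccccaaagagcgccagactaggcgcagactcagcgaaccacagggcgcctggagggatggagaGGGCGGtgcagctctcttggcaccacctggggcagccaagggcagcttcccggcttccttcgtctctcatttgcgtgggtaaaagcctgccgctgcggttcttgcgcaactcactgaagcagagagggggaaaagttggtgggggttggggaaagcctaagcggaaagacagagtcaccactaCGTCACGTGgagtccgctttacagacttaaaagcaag
Pla2g4a, chr1:149961241-149961540, minus strand: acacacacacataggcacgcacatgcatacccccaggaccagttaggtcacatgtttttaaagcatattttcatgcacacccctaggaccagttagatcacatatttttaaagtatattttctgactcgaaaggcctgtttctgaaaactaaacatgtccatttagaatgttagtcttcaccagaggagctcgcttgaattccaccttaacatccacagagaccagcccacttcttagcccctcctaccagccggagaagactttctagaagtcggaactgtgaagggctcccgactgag
Hpgd, chr8:56294302-56294601, plus strand: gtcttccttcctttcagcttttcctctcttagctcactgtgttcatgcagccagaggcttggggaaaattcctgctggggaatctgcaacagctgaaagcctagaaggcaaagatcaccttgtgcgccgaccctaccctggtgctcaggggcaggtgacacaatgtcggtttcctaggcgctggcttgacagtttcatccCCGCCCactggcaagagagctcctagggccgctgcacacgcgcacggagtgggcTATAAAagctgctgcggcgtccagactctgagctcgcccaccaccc
Ptger4, chr15:5244138-5244437, minus strand: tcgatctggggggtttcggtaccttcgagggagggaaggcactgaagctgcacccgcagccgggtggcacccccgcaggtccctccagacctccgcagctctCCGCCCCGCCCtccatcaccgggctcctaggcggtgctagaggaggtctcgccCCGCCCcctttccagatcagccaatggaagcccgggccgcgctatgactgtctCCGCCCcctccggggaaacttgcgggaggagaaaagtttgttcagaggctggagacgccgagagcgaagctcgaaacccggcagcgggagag
The Ptgs2 promoter held a CRE core on the minus strand from base 14 after the start, overlapped by an E-box from base 17, and a GC box from base −170. The CRE core was present in 20.8% of 32851 RefSeq promoters of this length, the E-box in 7.15% and the GC box in 35.7%. The Pla2g4a promoter, at the first of 2 starts in the table, matched none of these letters. Hpgd held a TATA box from base 5 after the start, found in 13.6% of promoters, and a GC box from base −50, while Ptger4 held 4 GC boxes, of which those from bases −148 and −143 overlap. No full CRE and no AP-1 site, present in 1.79% and 7.81% of promoters, was found in these windows. These are matches of letters and were not tested as binding sites.

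**Figure D1:**
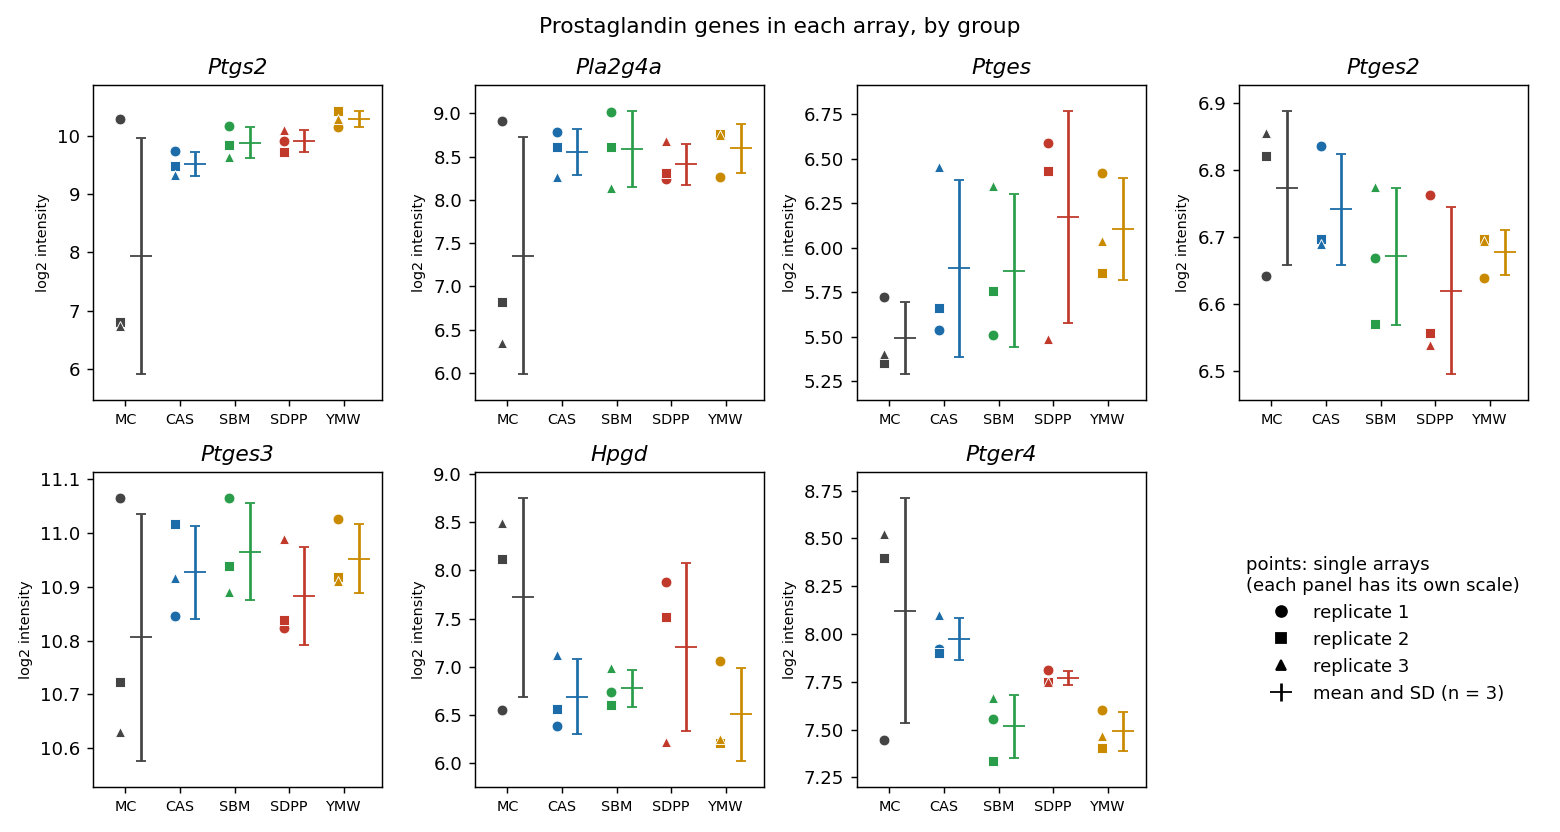
Log2 intensity (y axis) of the 7 measured prostaglandin genes in each array, by group (x axis), with the group mean and SD (n = 3) to the right of the points. In MC replicate 1 Ptgs2 was at 10.29 and Pla2g4a at 8.91, among the exposed arrays, while MC replicates 2 and 3 lay below all exposed arrays for both genes.

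Ptgs2, which encodes the inducible cyclooxygenase, was higher than in the MC with all 4 sources by the study's threshold, which asks for a change of 1.5-fold or more and a p below 0.05 before adjustment. Its log2 intensity was 10.29, 6.80 and 6.74 in MC replicates 1, 2 and 3. With CAS it was 9.74, 9.49 and 9.34 and with SBM 10.18, 9.85 and 9.65. It was 9.93, 9.72 and 10.11 with SDPP and 10.16, 10.43 and 10.31 with YMW. The 12 exposed arrays were all above MC replicates 2 and 3, and 10 of them were below MC replicate 1, which only YMW replicates 2 and 3 exceeded. The mean intensity was 491 ± 662 (SD, n = 3) in the MC. With CAS, SBM, SDPP and YMW in turn it was 741 ± 107, 963 ± 183, 974 ± 129 and 1263 ± 118. In limma, with 1 variance per gene for all groups, Ptgs2 was 2.99-fold, 3.86-fold, 3.93-fold and 5.11-fold higher than in the MC for CAS, SBM, SDPP and YMW. On the log2 scale these were 1.58, 1.95, 1.97 and 2.35 (SE 0.64). The adjusted p over all genes was 0.227, 0.180, 0.348 and 0.108, so none passed 0.05. Within the MC alone, replicate 1 was 11.3-fold above replicate 2 and 11.8-fold above replicate 3, more than any of these fold changes. The MC arrays spread more than the exposed arrays, so the SE and p against the MC are too small for this gene and the others that split the MC. The mean of the 4 sources was higher than the MC by 1.96 (SE 0.50, adjusted p = 0.0562 in limma), by 3.14 (SE 0.13, adjusted p = 3.43e-09) without MC replicate 1, and differed by −0.39 (SE 0.18, adjusted p = 0.859) from MC replicate 1 as the only control.

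Pla2g4a, which encodes the cytosolic phospholipase A2 that releases arachidonic acid, was likewise higher with each source by that threshold. The MC arrays 1, 2 and 3 had log2 intensities of 8.91, 6.82 and 6.34. It was 8.78, 8.61 and 8.26 with CAS and 9.01, 8.61 and 8.13 with SBM. It was 8.25, 8.31 and 8.68 with SDPP and 8.26, 8.77 and 8.75 with YMW. MC replicates 2 and 3 were again below every exposed array, and MC replicate 1 was exceeded by SBM replicate 1 alone. The log2 fold change was 1.20, 1.23, 1.06 and 1.24 with CAS, SBM, SDPP and YMW (SE 0.46), or 2.29-fold, 2.35-fold, 2.08-fold and 2.36-fold. The adjusted p was 0.216, 0.204, 0.393 and 0.178 in limma. For the mean of the sources it was 1.18 (SE 0.37, adjusted p = 0.0836), and it was 1.96 (adjusted p = 1.08e-05) without MC replicate 1 and −0.37 (adjusted p = 0.943) against that array alone. Pdc and Prg4, the nearest measured protein-coding genes past Ptgs2, were below background at mean log2 values of 2.83 and 3.13, as were Brinp3 (3.13) and Rgs18 (3.04) past Pla2g4a.

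The terminal synthases differed less from the MC. Ptges encodes the inducible microsomal prostaglandin E synthase. Its log2 intensity was 5.72, 5.35 and 5.41 in MC replicates 1, 2 and 3, 5.54, 5.66 and 6.45 with CAS, and 5.51, 5.75 and 6.35 with SBM. It was 6.59, 6.43 and 5.49 with SDPP and 6.42, 5.86 and 6.04 with YMW. All 3 YMW arrays were above all 3 MC arrays, while the other sources overlapped the MC. Ptges passed the threshold with SDPP alone (0.68, 1.60-fold, adjusted p = 0.396 in limma), with differences of 0.39, 0.38 and 0.61 (SE 0.30) with CAS, SBM and YMW. The difference was 0.10 without CAS replicate 3 and 0.14 without SBM replicate 3. Unlike for Ptgs2 and Pla2g4a, the difference of the mean of sources kept its sign against MC replicate 1 alone, at 0.28 (SE 0.38), beside 0.51 (SE 0.24) against all MC arrays.

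Ptges2, a membrane-associated prostaglandin E synthase, ranged only from 6.54 to 6.86 over the 15 arrays, and its differences from the MC were between −0.15 and −0.03 (SE 0.09). Ptges3 encodes the cytosolic synthase, also a co-chaperone, and ranged from 10.63 to 11.07 with differences between 0.08 and 0.16 (SE 0.10). Neither passed the threshold in any comparison. The symbol Ptges3 stood on 3 probe sets, with mean log2 values of 10.91, 10.59 and 8.59, which can share sequence with near-identical copies. On these, the mean of the sources differed from the MC by 0.13, 0.08 and 0.01 (SE 0.07, 0.07 and 0.12).

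Ptger4 encodes EP4, a prostaglandin E2 receptor that raises cAMP. Log2 intensities of 7.45, 8.40 and 8.53 were measured in MC replicates 1, 2 and 3. It was 7.92, 7.90 and 8.10 with CAS and 7.55, 7.34 and 7.66 with SBM. It was 7.81, 7.75 and 7.75 with SDPP and 7.60, 7.40 and 7.47 with YMW. MC replicates 2 and 3 were above every exposed array and MC replicate 1 was below 10 of the 12. Ptger4 was lower than the MC by the threshold with SBM (−0.60, 1.52-fold lower) and with YMW (−0.63, 1.55-fold lower), with adjusted p of 0.182 and 0.140 in limma. With CAS the difference was −0.15 and with SDPP −0.35 (SE 0.20). For the mean of the sources it was −0.43, short of the fold threshold, with −0.77 (adjusted p = 2.22e-05 in limma) without MC replicate 1 and 0.24 against it alone.

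Hpgd, which encodes the dehydrogenase that oxidizes and so inactivates prostaglandin E2, was lower than in the MC with CAS and YMW by the threshold. In MC replicates 1, 2 and 3 it was at log2 intensities of 6.55, 8.12 and 8.50. It was 6.38, 6.56 and 7.12 with CAS and 6.74, 6.60 and 6.98 with SBM. It was 7.88, 7.51 and 6.22 with SDPP and 7.06, 6.20 and 6.25 with YMW. MC replicates 2 and 3 were above all exposed arrays, and the SDPP arrays were the most spread of the sources. Hpgd was lower than the MC by the threshold with CAS (−1.03, 2.04-fold lower) and with YMW (−1.21, 2.32-fold lower). The log2 difference was −0.94 with SBM and −0.51 with SDPP (SE 0.46 throughout), short of the threshold, and with SDPP it was −0.022 without SDPP replicate 3. No adjusted p was under 0.05, the lowest being 0.183 with YMW in limma. The mean of the sources differed from the MC by −0.93 (SE 0.37), by −1.51 without MC replicate 1 and by 0.25 against that array alone.

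Counted together, 3 of the 7 genes passed the threshold with CAS, of which 2 were higher and 1 lower, against 3.85% of all genes (1.82% higher, 2.04% lower). With SBM 3 passed, 2 higher and 1 lower, against 3.5% (1.37% higher, 2.14% lower). With SDPP 3 passed, all higher, against 1.63% (1.13% higher, 0.499% lower). With YMW 4 passed, 2 higher and 2 lower, against 3.87% (1.74% higher, 2.13% lower). For the mean of the sources 3 passed, 2 higher and 1 lower, against 3.35% (1.45% higher, 1.9% lower). The 4 comparisons share the same MC arrays. The genes and lists were chosen with earlier results of these data known. The counts here and below therefore cannot be read as more calls than among all genes. The median log2 difference over the 7 genes was 0.12, 0.16, 0.08 and 0.15 with CAS, SBM, SDPP and YMW, beside −0.00, −0.01, 0.00 and 0.02 over all genes. No gene of the 7 passed an adjusted p of 0.05 in limma in any of them, while 0.654%, 0.00531%, 0% and 0.00531% of all genes did with CAS, SBM, SDPP and YMW and 1.52% for the mean of the sources. The arrays of a source did not overlap those of the MC for 0, 0, 0 and 1 of the 7 genes with CAS, SBM, SDPP and YMW, where 13.2%, 13.9%, 10.8% and 14.5% of all genes did not. For all 12 exposed arrays against the MC it was 0 of 7, and 1.75% of all genes. Without MC replicate 1, 5 of the 7 genes passed the threshold for the mean of the sources, against 8.68% of all genes. With MC replicate 1 as the only control, 0 of 7 did, against 0.436% of all genes.

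**Figure D2:**
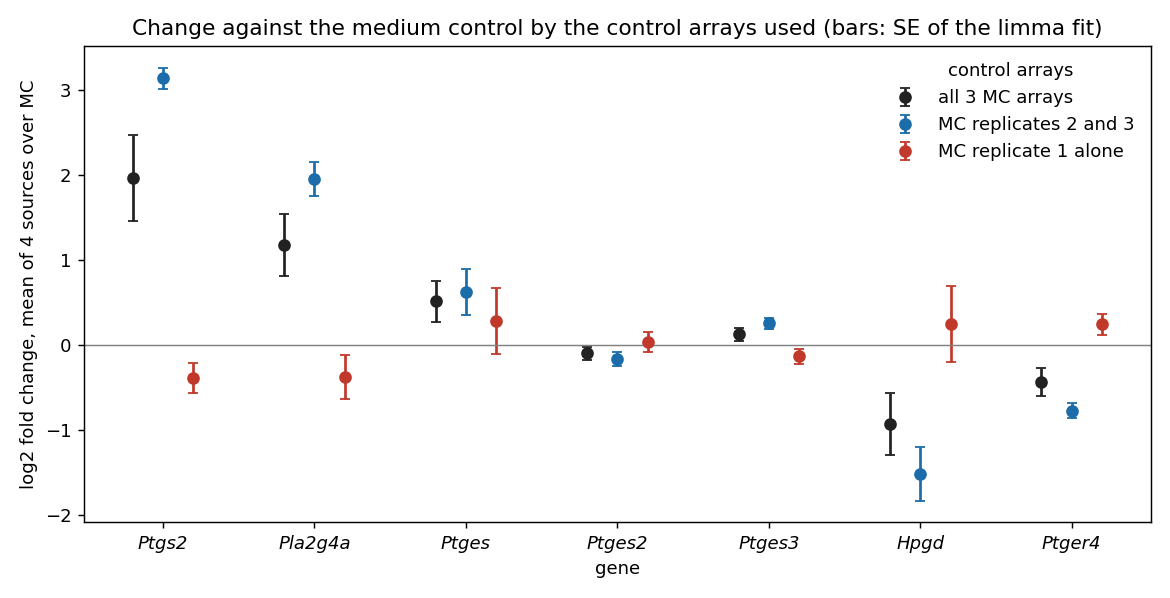
Log2 fold change of the mean of the 4 sources over the MC (y axis) for each gene (x axis), with the SE of the limma fit, using all 3 MC arrays, MC replicates 2 and 3, or MC replicate 1 alone. Ptgs2 was at 1.96, 3.14 and −0.39 with these controls, and the sign also turned for Pla2g4a, Ptges2, Ptges3, Hpgd and Ptger4, while Ptges stayed above 0.

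The 12 exposed arrays can be compared without the MC. In the fit to all 15 arrays, no gene of the 7 passed the threshold for CAS, SBM, SDPP or YMW against the mean of the other 3 sources, as 0.159%, 0.0266%, 0.0159% and 0.0691% of all genes did. None differed among the sources at an adjusted p of 0.05 in the F test, which 0.0425% of all genes passed, or at an unadjusted p of 0.05. That fit carries the spread of the MC arrays in its variance. In a fit to the 12 exposed arrays alone, whose comparisons of pairs were added after the data were seen, none of the 7 passed the F test at an adjusted p of 0.05 either, which 0.0956% of genes did, and the adjusted p was 0.124 for Ptger4 and 0.167 for Ptgs2.

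The group means of Ptgs2 stood in the order CAS, SBM, SDPP and YMW, at 9.52 ± 0.21, 9.89 ± 0.27, 9.92 ± 0.19 and 10.30 ± 0.14 (log2, SD, n = 3). Neighbours in this order differed by no more than 0.40 on the log2 scale. SBM and SDPP were not distinguishable, at −0.02 (95% confidence interval −0.32 to 0.27), and CAS and SBM, or SDPP and YMW, did not pass the threshold. Across the extremes, CAS was below YMW by a log2 difference of −0.77 (SE 0.14, 95% confidence interval −1.07 to −0.48, adjusted p = 0.0482 in limma), with every CAS array under every YMW array. It was the only gene of the 7 past the threshold among the 6 pairs of sources, in which 0.308%, 0.26%, 0.282%, 0.112%, 0.165% and 0.128% of all genes passed for CAS and SBM, CAS and SDPP, CAS and YMW, SBM and SDPP, SBM and YMW, and SDPP and YMW. An adjusted p of 0.05 was passed for CAS and YMW by 0.154% of genes, and for Ptgs2 in 3 of 12 refits that each left out 1 exposed array, with adjusted p between 0.0297 and 0.224. With the MC arrays in the fit, its SE was 0.64 and its adjusted p 0.962. CAS and YMW held the lowest and the highest mean. Neither the interval nor the adjusted p, which is taken over genes within a pair, allows for the choice of this pair from the 6. The share of all genes for which CAS and YMW arrays did not overlap was not counted.

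Ptger4 followed another order, with group means of 7.49 ± 0.10 with YMW, 7.52 ± 0.17 with SBM, 7.77 ± 0.04 with SDPP and 7.98 ± 0.11 with CAS (log2, SD, n = 3). Every CAS array was above the 9 arrays of the other sources, and the share of all genes with such a separation was not counted. CAS was above the mean of the other sources by 0.38 (SE 0.08, 95% confidence interval 0.22 to 0.55, adjusted p = 0.0651 in limma) in the 12 exposed arrays, above SBM by 0.46 (adjusted p = 0.0876) and above YMW by 0.48 (adjusted p = 0.0675). These differences were below 1.5-fold and missed an adjusted p of 0.05. YMW and SBM were not distinguishable, differing by 0.03 (95% confidence interval −0.18 to 0.23).

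Pla2g4a, Ptges and Hpgd varied less between the sources than within them. In the exposed arrays the mean log2 of the enterocyte markers left a gap, with 7 arrays between 8.36 and 8.74 and 5 arrays between 9.39 and 10.10. The latter were SBM replicate 3, YMW replicate 1, CAS replicate 3 and SDPP replicates 1 and 2. Ptges was between 6.35 and 6.59 in these arrays and between 5.49 and 6.04 in the other 7. Hpgd was between 6.98 and 7.88 in them and between 6.20 and 6.74 in the others. Pla2g4a was between 8.13 and 8.31 in them and between 8.61 and 9.01 in the others. None of these ranges overlapped, and the marker list holds none of the 7 genes. The ranges of Slco2a1, Pla2g12b and Prxl2b, described below, did not overlap across the gap either. The share of all genes with such a separation was not counted, so it cannot be read as particular to these genes. Ptgs2 overlapped across the gap, from 9.34 to 10.16 and from 9.49 to 10.43, but within each of the 4 sources the arrays with more enterocyte marker signal had the lower Ptgs2. These sets of arrays are not groups of the study, and no test was made between them. Within the 7 arrays below the gap, relations with the marker mean were tested by permutations that ignored the source of each array. None of 7 relations held after adjustment. The nearest was Pla2g4a (Pearson's r = −0.77, exact permutation p = 0.0337, adjusted p = 0.236; Spearman's rho = −0.86, exact permutation p = 0.0238, adjusted p = 0.167), with r = −0.34 without the 2 arrays farthest from the median marker level. MC replicates 2 and 3 carried the most enterocyte marker signal of all arrays, and their Ptges values of 5.35 and 5.41 were the lowest of all 15, while their Hpgd values were the highest.

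**Figure D3:**
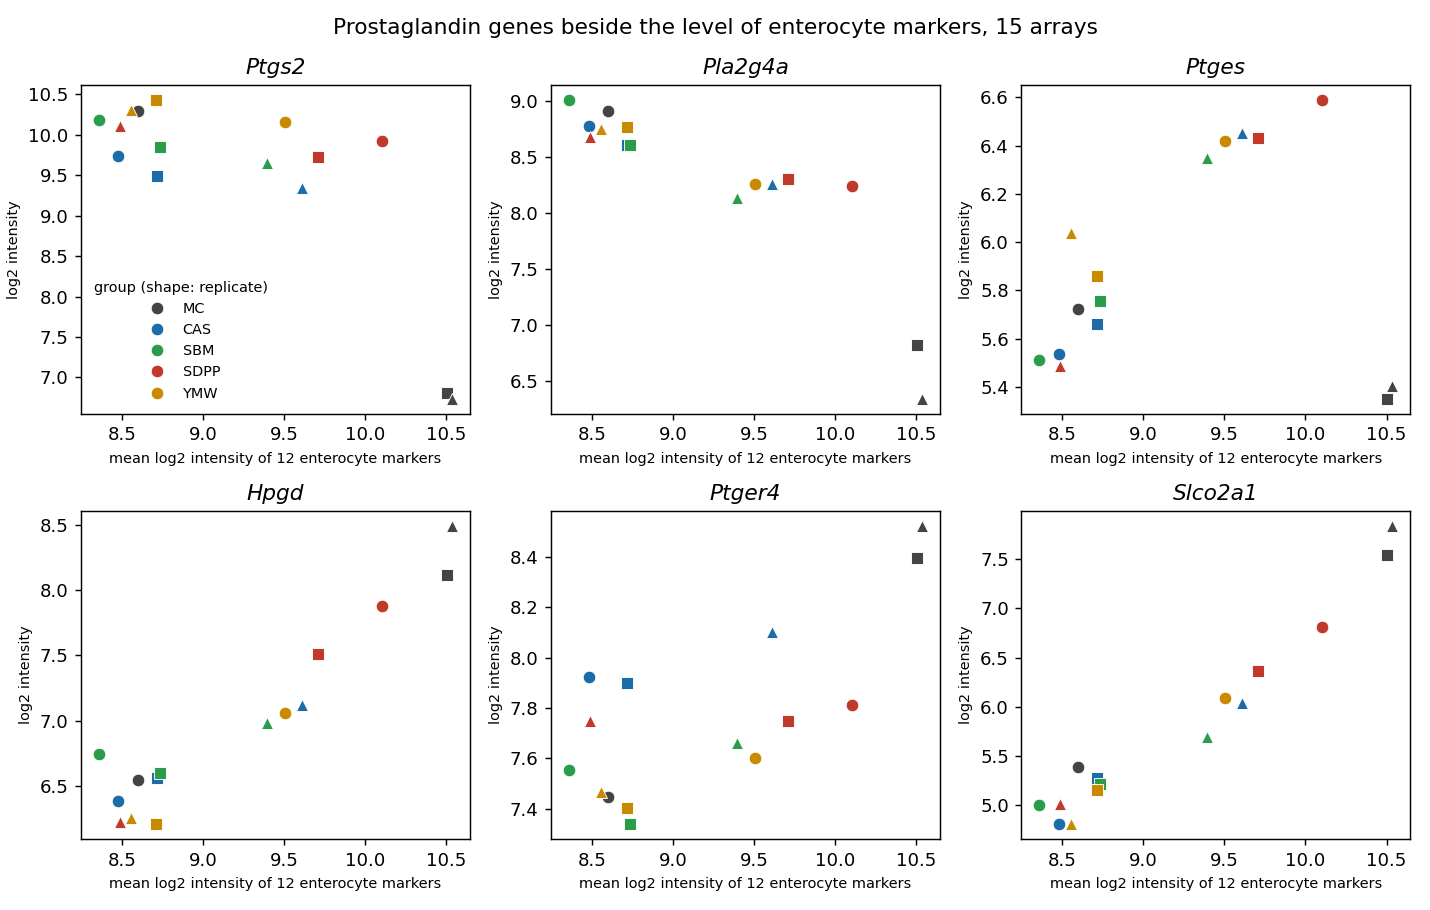
Log2 intensity of 5 prostaglandin genes and of Slco2a1 (y axes) against the mean log2 intensity of 12 enterocyte markers (x axes) in the 15 arrays, coloured by group and shaped by replicate. Hpgd and Slco2a1 were highest in MC replicates 2 and 3, at marker means of 10.50 and 10.54, where Ptgs2, Pla2g4a and Ptges were lowest.

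The genes whose pattern was most like Ptgs2 over the 15 arrays, by the root mean square difference of log2 values centred on each gene's mean among 12879 other genes above background, were Fn1 (0.24), Msn (0.34), Igfbp7 (0.35), Thbs1 (0.43) and Ankrd1 (0.44). Pla2g4a ranked 8 in that order, at 0.49. The genes most like Pla2g4a were Clu (0.16), Trp53i11 (0.19), Ttc9 (0.20), Mal (0.20) and Ptpn14 (0.21), and Ptgs2 ranked 466. Over the 12 exposed arrays alone the nearest genes were others, namely Timp2 (0.11), Aqp1 (0.15), Arhgap6 (0.17), Crct1 (0.17) and Tk1 (0.17) for Ptgs2 and Fabp5 (0.08), Rab15 (0.09), Olfm4 (0.11), Apobec3 (0.11) and Mcm6 (0.11) for Pla2g4a. Pla2g4a then ranked 2370 for Ptgs2. The high rank of Pla2g4a for Ptgs2 thus did not hold without the MC arrays, by a measure that also depends on how widely each gene varies. Within each of the 4 sources, both genes were lower in the arrays with more enterocyte marker signal, while Ptges and Hpgd were higher in them. The share of all genes with such an order was not counted, so it is not particular to this pair of genes.

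Of the genes that carry prostaglandins across membranes or break them down, all 5 listed were measured. With CAS 0 were higher and 2 lower by the threshold, with SBM 1 and 1, with SDPP 0 and 0, and with YMW 2 and 1. Of all genes, 1.82% were higher and 2.04% lower with CAS, 1.37% and 2.14% with SBM, 1.13% and 0.499% with SDPP, and 1.74% and 2.13% with YMW. Slco2a1 encodes the carrier that takes prostaglandins into the cell for oxidation by the Hpgd enzyme. Its log2 intensity was 5.38, 7.55 and 7.84 in MC replicates 1, 2 and 3 and between 4.80 and 6.82 in the exposed arrays. It fell by the threshold with CAS (−1.55), SBM (−1.62) and YMW (−1.58) and differed by −0.86 with SDPP (SE 0.59), with MC replicate 1 again among the exposed arrays.

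Ptgr1, an enzyme of prostaglandin and leukotriene B4 breakdown, behaved differently. Its log2 intensity was 10.35, 10.58 and 10.72 in MC replicates 1, 2 and 3 and between 9.91 and 10.30 in the 12 exposed arrays. All exposed arrays were thus below all MC arrays, replicate 1 included. It was lower with CAS by the threshold (−0.60, SE 0.10, 1.52-fold lower, adjusted p = 0.0154 in limma), and differed by −0.44, −0.53 and −0.37 with SBM, SDPP and YMW, under 1.5-fold. For the mean of the sources the difference was −0.48 (adjusted p = 0.0220 in limma), and MC replicate 1 alone lay 0.29 above the mean of the exposed arrays. Cbr3, a carbonyl reductase, was at 7.21, 6.73 and 6.25 in MC replicates 1, 2 and 3. It was between 7.51 and 7.81 with SBM and between 7.57 and 7.71 with YMW, above all MC arrays. It was higher with SBM (0.91) and YMW (0.92, SE 0.18) by the threshold, with adjusted p of 0.105 and 0.0707 in limma, and differed by 0.29 with CAS and 0.50 with SDPP. For the mean of the sources it was higher by 0.66 (adjusted p = 0.0436 in limma). Unlike for Ptgr1, MC replicate 1 was inside the exposed range, 0.18 below the exposed mean and above all CAS arrays (6.98 to 7.10). The SD of Cbr3 was 0.48 in the MC and at most 0.18 in an exposed group, so this p is also too small. Abcc4, an exporter of prostaglandins, was higher with YMW (0.73, SE 0.30, adjusted p = 0.207 in limma), with overlapping groups.

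**Figure D4:**
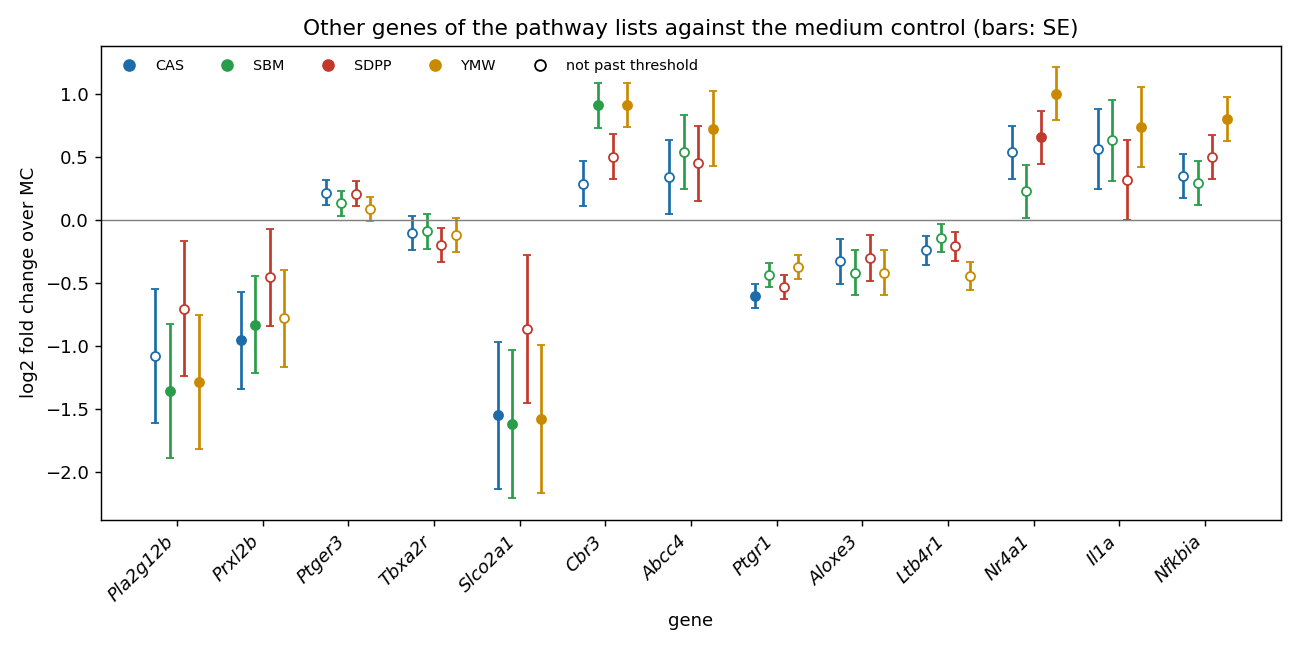
Log2 fold change over the MC (y axis) with its SE for the named genes of the pathway lists (x axis), by source. Filled points passed the study's threshold and open points did not. Slco2a1 lay between −1.62 and −0.86, and Ptgr1 between −0.60 and −0.37 with small errors.

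Of 17 measured genes of other arachidonate-releasing lipases, 16 did not pass in any comparison. Pla2g12b, a catalytically inactive member of the phospholipase A2 family, was lower with SBM (−1.35) and YMW (−1.28, SE 0.53), and its values of 6.61, 8.84 and 9.17 in the MC arrays split as those of Hpgd did. Of 7 measured other terminal synthases, Prxl2b, a prostamide and prostaglandin F synthase, was lower with CAS (−0.95) and SBM (−0.83, SE 0.39), and 6 did not pass. Of 6 measured other prostanoid receptors none passed, and only Ptgir (mean log2 4.17) and Tbxa2r (4.21) were above background. Tbxa2r, the thromboxane receptor, differed by −0.13 for the mean of the sources, and Ptger3, which was below background at 3.34, by 0.16. Of 13 measured genes of the lipoxygenase and leukotriene arm none passed, and the largest mean differences were −0.36 for Aloxe3 and −0.26 for Ltb4r1. The median over these lists for the mean of the sources was 0.00, 0.04, 0.05 and −0.04, and −0.21 over the transport and inactivation genes, beside 0.00 over all genes.

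Of genes known to respond to cAMP, the second messenger of EP4, 12 were measured and 1 passed the threshold. It was higher with SDPP, where 1.13% of all genes were, with YMW (1.74%) and for the mean of the sources (1.45%), and none passed with CAS or SBM. That gene was Nr4a1, a nuclear receptor of the immediate early response, at 7.32, 6.43 and 6.25 in MC replicates 1, 2 and 3 and between 7.58 and 7.84 with YMW. It was higher by 1.00 with YMW (SE 0.21, adjusted p = 0.0760 in limma) and by 0.66 with SDPP, by 0.61 for the mean of the sources, and differed by 0.54 with CAS and 0.23 with SBM. Of 14 measured cytokine and stress genes that are often induced with Ptgs2, 2 were higher with YMW, where 1.74% of all genes were, and none with CAS (1.82%), SBM (1.37%) or SDPP (1.13%). Nfkbia, the inhibitor of NF-κB, was at 9.54, 8.69 and 8.70 in the MC arrays and at 9.86, 9.75 and 9.74 with YMW, higher by 0.80 (SE 0.17, adjusted p = 0.0848 in limma). Il1a, which encodes interleukin 1 alpha, was higher by 0.74 (SE 0.32), with MC replicate 1 at 5.69 within the YMW range of 5.19 to 5.74. The medians of these lists with YMW were 0.06 and 0.16, beside 0.02 over all genes.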

How the data were processed

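Mouse gene arrays (Affymetrix, 1.1 ST) were read for 5 groups of 3 samples. The authors made the deposited intensity values with RMA (background correction, quantile normalization and summary per probe set), whose version is not given in the sources used here. The design had allowed for log2 or linear values, and they are linear, from 3.02 to 10739, and log2 was taken from these deposited values. The array number limits the precision. Of 35556 probe sets, 21218 had 1 symbol, 1881 several and 12457 none here. Where probe sets shared a symbol, the one with the highest mean was kept.

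The 15 arrays entered a single linear model with 5 group means (limma 3.58.1, R 4.3.3). Its eBayes step used a trend, p-values were adjusted by Benjamini-Hochberg over 18820 genes, and the code was tested on simulated data. The simulation gave all groups of a gene the same spread, so it does not test the p-values of genes whose MC arrays spread more. Comparisons were each source with the MC and with the other 3 sources, and the mean of sources with the MC. The genes and lists were chosen with earlier results of these data known. Named are all members and, of each list, up to 4 genes past the threshold with the largest mean change, or up to 2 where none passed. Likeness was taken for the 2 members with the largest SD, with the 5 nearest genes. Pdc, Prg4, Brinp3 and Rgs18 were named for their position and marker genes as checks. Alternatives were other variance models, scalings, filters and probe sets, the replicate block, pairs of groups alone, array weights, other fold thresholds and leaving out arrays. The fit to 12 exposed arrays by pairs and the 3 Ptges3 probe sets were added after the data were seen.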

Additional observations from a re-analysis of the deposited data

Results flagged for a closer look

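Ptgs2 differed between CAS and YMW in the fit to the 12 exposed arrays alone, at −0.77 on the log2 scale (limma, adjusted p = 0.0482), which is also the difference between their changes from the same MC arrays. All 3 CAS arrays (9.34 to 9.74) were below all 3 YMW arrays (10.16 to 10.43), and the share of all genes with such a separation was not counted. With the MC arrays in the fit the adjusted p was 0.962, and leaving out 1 exposed array at a time gave adjusted p between 0.0297 and 0.224. The adjusted p does not allow for choosing this pair, with the lowest and the highest mean, from all pairs of sources.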

How the results depend on the processing

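The 10 counts of genes, past the threshold or in the F test among sources, were recomputed under settings that left out no array. Of the 112 counts this gave, 99 stayed within 1.5 times the reported count. Counts of 0 that stayed at 0 and falls from 3 to 2 are among the 99, so they do not show that each call was kept. With each pair of groups alone, 0 genes passed for CAS, 0 for SBM and 0 for SDPP, a fit with fewer arrays. With array weights 5 passed for SDPP, 5 for the mean of the sources and 1 for SDPP against the other sources. Without a fold threshold 5 passed for the mean of the sources and 1 (Ptger4) for CAS against the others. With MC replicate 1 as the only control the counts were 1, 0, 0, 0 and 0 for CAS, SBM, SDPP, YMW and their mean, the 1 being Ptgs2, which then was lower with CAS, where the lone array is assumed to vary like the other groups. Leaving out 1 array at a time gave 0 to 3 for CAS, 0 to 4 for SBM, 1 to 5 for SDPP, 1 to 5 for YMW and 1 to 5 for the mean, each lowest without MC replicate 2 or 3, and no other array gave a higher count than leaving out MC replicate 1 did, and 0 to 1 for SDPP against the others (1 without SDPP replicate 3). Without CAS replicate 1 the CAS count was 0, the SDPP count was 1 when SDPP replicate 1 or 2 was left out, and without YMW replicate 3 the YMW count was 2. Apart from MC arrays, leaving out 1 array of the source ended the calls of Ptgs2 with CAS (replicate 1), Pla2g4a with CAS (1), SBM (1), SDPP (any) and YMW (2 or 3), Hpgd with CAS (1 or 2) and YMW (2 or 3), Ptger4 with SBM (2) and Ptges with SDPP (1 or 2). Without SBM replicate 1 or 2 the call of Hpgd with CAS also ended. The cause was not tested.

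Against MC replicate 1 alone the sign turned in 27 log2 differences. Ptgs2 was at −0.77, −0.40 and −0.38 with CAS, SBM and SDPP and −0.39 for the mean. Pla2g4a was at −0.36, −0.33, −0.50, −0.32 with CAS, SBM, SDPP and YMW and −0.37 for the mean. Ptges2 was at 0.099, 0.029 and 0.035 with CAS, SBM and YMW and 0.035 for the mean. Ptges3 was at −0.14, −0.10, −0.18 and −0.11 with CAS, SBM, SDPP and YMW and −0.13 for the mean. Hpgd was at 0.14, 0.23 and 0.66 with CAS, SBM and SDPP and 0.25 for the mean. Ptger4 was at 0.53, 0.072, 0.32 and 0.046 with CAS, SBM, SDPP and YMW and 0.24 for the mean. Leaving out 1 array, the sign turned without MC replicate 3 for Ptges2 with CAS (0.0098, range −0.10 to 0.0098), Ptger4 with CAS (0.055, range −0.48 to 0.055) and Ptges3 with SDPP (−0.010, range −0.010 to 0.21). Between pairs of sources it turned for Ptgs2, SBM against SDPP, without SBM replicate 3 (0.098) or SDPP replicate 3 (0.069) in a range of −0.17 to 0.098, and for Ptger4, SBM against YMW, without SBM replicate 3 (−0.046) or YMW replicate 2 (−0.017) in a range of −0.046 to 0.12.

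Whether arrays with the same replicate number share a mouse is not given in the sources used here. Over 30 same-numbered pairs the median correlation of deviations from the group means was −0.161 (range −0.686 to 0.537). Of 15 arrays, 2 were most like one with their number. Other differences within groups can hide a shared mouse, so these values do not show that the arrays were unpaired. Under a replicate block 2, 3, 2, 4 and 3 genes passed for CAS, SBM, SDPP, YMW and the mean, with Hpgd lost for CAS and Ptges for SDPP. A second quantile normalization ended the calls of Hpgd with CAS, Ptger4 with SBM and Ptges with SDPP, and centring on the median that of Ptges with SDPP, while the median of all genes moved by less than 0.1. The number of arrays and signal near background limit what can be seen.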
